A study of Mus musculus with 3 samples.

Results

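Long noncoding RNA genes whose RNA was recovered with the ribosomes of heart endothelial cells are described here. They were selected on the measured values: a gene was taken when the deposited table gives it the biotype lncRNA, when it lies on neither X nor Y, and when its mean normalized count over 3 mice was at least 200. The rule took 106 genes of the 17583 in the table, or 106 of the 2155 autosomal lncRNA genes listed (4.92%). At the same threshold the table holds 8961 of 13767 autosomal protein-coding genes (65.1%). Because the level chose the members, their levels are a description and carry no test.

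The samples are hearts of 3 EC-RiboTag mice with the genotype Cdh5-CreERT2;Rpl22tm1.1Psam, given as biological replicates of a single condition. In these animals Cre under the Cdh5 promoter, active in endothelial cells after induction with tamoxifen, switches the ribosomal protein Rpl22 to a form with an HA tag, so that anti-HA beads pull down endothelial ribosomes from heart homogenate. The labels place the collection 7 days after coronary ligation, whereas the RiboTag paragraph of the study's methods mentions no infarction. The sample names contain an Rz left unexplained in the labels; elsewhere in the study RZ stands for the remote zone of infarcted hearts, also for a pull-down from EC-RiboTag mice. The background is C57BL/6, and the mice of the study as a whole were of both sexes and 8 to 20 weeks old, while the labels give neither sex nor age for these 3. No homogenate library, untagged heart or other condition is in the table, so a level here says what was recovered and not how far it was concentrated by the pull-down. The unit is the read count of a gene after the authors' DESeq2 normalization, rounded to a whole number. The values of all genes add up to 7149102, 7158585 and 7268785 for mice 1, 2 and 3, the order kept for all values below.

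Long noncoding RNAs are transcripts without a known protein product, and most of those studied act in the nucleus, where they scaffold nuclear bodies, silence imprinted neighbours or mark the transcription of a nearby gene. Others are exported, bind microRNAs or RNA-binding proteins in the cytoplasm, or carry small nucleolar RNAs (snoRNAs) and microRNAs in their introns and exons. In the vessel wall Malat1, H19 and Meg3 are the best known, with roles in endothelial proliferation, growth and sprouting. Presence in a ribosome pull-down does not by itself show that an RNA is translated.

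The endothelial label was checked against cell type markers. All 9 endothelial markers were at or above 200, with summed levels of 24679, 23496 and 23722 in mice 1 to 3 and Flt1 as the highest at 4919. All 6 cardiomyocyte markers were at or above 200 as well, and summed to 17171, 18192 and 21258, with Ttn at 8437 the most abundant. Per base of transcript the median was 0.713 normalized counts for the endothelial list and 0.423 for the cardiomyocyte list, so RNA of muscle cells was in these pull-downs beside the endothelial RNA.

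Lower levels were found for the other cell types. The 5 fibroblast markers summed to 1791, 2251 and 2366 and reached at most 799.7 (Dcn), and the 5 mural cell markers summed to 986, 1410 and 1421, led by Rgs5 at 554. The 3 lymphatic markers, which belong to endothelial cells too, summed to 1187, 1624 and 1837, with Lyve1 highest at 808.7. Of the 5 leukocyte markers 4 were listed, with sums of 224, 383 and 364 and Ptprc highest at 146, whereas Cd3e was not in the table. The 3 erythroid markers summed to 215, 215 and 247 (Hbb-bs highest at 119.3). None of these markers that the table lists was at 0 in any mouse. In pull-downs without a homogenate library, fewer cells of a type, less RNA per cell and less of their RNA carried over cannot be told apart.

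Mouse 1 stands apart from the other two. Its fibroblast, mural, leukocyte, lymphatic and cardiomyocyte sums were the lowest of the 3 mice, and its endothelial sum was the highest. Gene by gene, mouse 1 was lowest for 4 of 5 fibroblast, 4 of 5 mural, 4 of 4 leukocyte and 3 of 3 lymphatic markers. Of the 6 cardiomyocyte markers it was lowest for 4, Ttn and Ryr2 included, and highest for Actc1 (1046, 998 and 927) and Myl2 (729, 701 and 605). Of the 9 endothelial markers it was highest for 5 and lowest for 2, Cdh5 (2808, 2860 and 2930) and Eng (2802, 2842 and 2828). Xist, the lncRNA that coats the inactive X chromosome, was at 4, 618 and 869, and the Y-linked Ddx3y was at 1080, 3 and 1. The labels give no sex, and genes of X and Y are outside the selection.

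As a class, lncRNA genes lay far below protein-coding genes. The median level was 11 normalized counts over the 2155 autosomal lncRNA genes and 362 over the 13767 protein-coding genes, a 32.9-fold difference (5.04 on the log2 scale). Per base of the canonical transcript the medians were 0.00980 and 0.105, which is a 10.7-fold difference (3.42 on the log2 scale). The medians per base cover the 2077 lncRNA and 13757 protein-coding genes found in the GENCODE M39 annotation. The classes were closer at the upper end, where the 90th percentile of levels was 107.4 for lncRNA genes and 1172 for protein-coding genes, a 10.9-fold difference. Medians were close between mice: 12, 10 and 11 for lncRNA genes and 355, 364 and 361 for protein-coding genes.

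**Figure D1:**
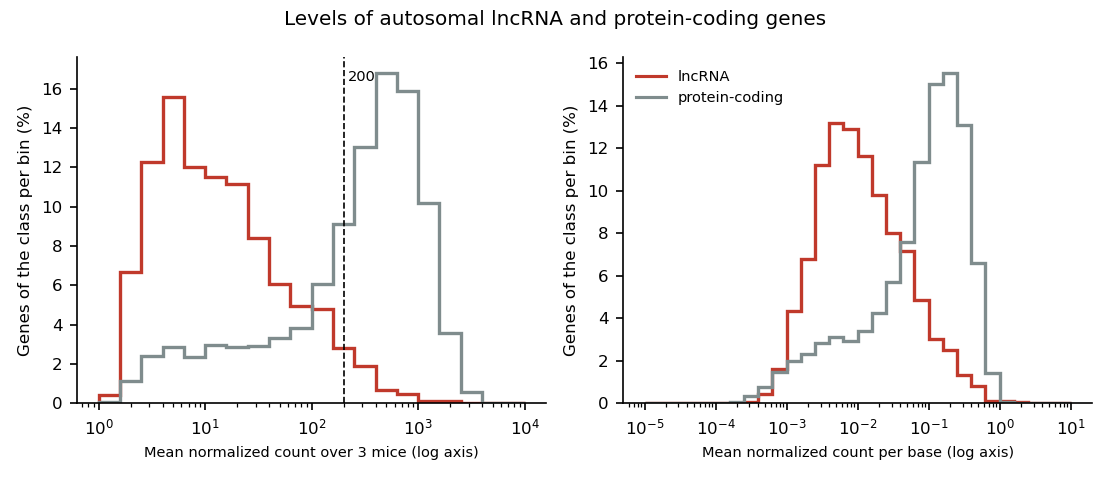
Distribution of mean normalized counts (left) and of mean normalized counts per base of the canonical transcript (right), both on log axes, as percent of the autosomal genes of each class per bin; red, lncRNA genes; grey, protein-coding genes; dashed line, the threshold of 200. The lncRNA genes have a median of 11 and 0.00980 per base, against 362 and 0.105 for protein-coding genes. Values per base, and their percents, are of genes found in GENCODE M39.

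The share of lncRNA among listed genes thinned out with the level. Below 10 normalized counts lncRNA genes were 33.4% of all genes (1012 of 3030), from 100 to 200 they were 8.43%, from 200 to 400 they were 2.89%, and at 1000 or more they were 0.302% (6 of 1985). Of the 106 members, 53 had a mean from 200 to 300, 29 from 300 to 500, 18 from 500 to 1000 and 6 at or above 1000. Their median level was 301.5, with quartiles of 235.2 and 470.75 and a maximum of 2464, while the protein-coding genes past the same threshold had a median level of 594. Of the members, 16 lay at or above that protein-coding median, and 90 protein-coding genes lay above the highest member. Together the members held 0.675%, 0.608% and 0.594% of all values in mice 1 to 3, out of 1.46%, 1.26% and 1.27% for all lncRNA genes.

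Once both classes were held to a mean of at least 200, the order per base depended on how length was taken. The median per base of canonical transcript was 0.224 for the members and 0.177 for protein-coding genes, a log2 ratio of protein-coding over lncRNA of -0.34. With the length of all exons in the annotation they were 0.0743 and 0.0918, and the log2 ratio was 0.31, so the sign turned. Members are shorter, with a median canonical transcript of 1573 bases against 3685, and have a median of 3 exons against 10.

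Oip5os1, known as Cyrano, led the members. This cytoplasmic RNA pairs with miR-7 and triggers its destruction. Its normalized counts were 2674, 2287 and 2432, or 2464 ± 196 (SD, n = 3), and it ranked 92 among all genes by level. All 3 mice were far above the threshold, and the spread between them was small. Per base of canonical transcript, the length used wherever no other is named, its level was 0.284, above 82.9% of protein-coding genes. The gene (ENSMUSG00000085438) lies on chromosome 2 from 119424757 to 119437983 in GRCm39 on the plus strand. Oip5, after which it is named, was at 119, 272 and 191.

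The pairing site of Oip5os1 for miR-7 was found in the last of its 3 exons, at positions 3318 to 3342 of the 8683-base canonical transcript (chr2:119432618-119432642, plus strand, GRCm39). It is shown since it is the element through which this top member is known to act. The mature microRNA is from the RefSeq table with the GRCm38.p6 build. Capitals mark bases that pair in both sequences: 8 at the 5′ end of the microRNA and 13 at its 3′ end, 21 of its 23 bases, with 4 bases of the site and 2 of the microRNA left unpaired between.
Oip5os1 site: ACAACAAAATCACcaatGTCTTCCA
mmu-miR-7a-5p: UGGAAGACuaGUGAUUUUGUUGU
The letters GTCTTCC that pair with the miR-7 seed, searched on the transcript strand, were in 17 of the 106 members (Oip5os1 holds them 2 times), and in 26.5% of all 17475 canonical transcripts.

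Malat1 and Neat1, neighbours on chromosome 19, are both nuclear: Malat1 sits in nuclear speckles, and Neat1 is the scaffold of paraspeckles. Malat1 was at 913, 1322 and 1288 normalized counts, or 1174 ± 227 (SD, n = 3). Mouse 1 was the low one, by -0.52 on the log2 scale against the mean of the others. Neat1 was at 1665, 1835 and 1409, or 1636 ± 214 (SD, n = 3), with mouse 3 lowest. Per base the order of the pair was the other way round: 0.149 for Malat1, above 60.9% of protein-coding genes, and 0.0731 for Neat1, whose canonical transcript has 22397 bases, above 40.2% of them. Malat1 (ENSMUSG00000092341) spans 5845717 to 5852704, and Neat1 (ENSMUSG00000092274) spans 5874736 to 5895898, both on the minus strand. These spans are those of the deposited table, whereas the transcript lengths are from the newer GENCODE M39, in which both single-exon genes are longer.

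Of 6 lncRNAs on the nuclear-retained list, 5 were in the table and 3 were members, the third being Airn. Meg3 was just under the threshold, Kcnq1ot1 was at 41, and Miat was not listed.

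In place of a poly(A) tail, Malat1 and the long form of Neat1 end in a triple helix, in which a pair of U-rich stretches clasps an A-rich tract. The letters TTTCTTTT, then TTTGCTTT within 60 bases, then AAGCAAAA within 70 bases were searched on the transcript strand only. These letters are those of the Malat1 and Neat1 ends themselves, so the hits in this pair were given by the choice of letters and test nothing. Besides this pair the search found no other transcript: the hits were 2 of 106 members and 2 of all 17475 canonical transcripts (0.0114%). Of 8961 protein-coding genes at or above 200, 0 held the letters. A triple helix with other letters or wider spacing would be missed, so the counts do not show that other transcripts lack one. Capitals mark the U-rich stretches and the A-rich tract, which this pair has in place of an ordinary tail, in a library made for mRNA. The Malat1 stretch is chr19:5846010-5846097 and ends 293 bases before the annotated end, and the Neat1 stretch is chr19:5874736-5874829 and ends at it, both GRCm39, minus strand.
Malat1: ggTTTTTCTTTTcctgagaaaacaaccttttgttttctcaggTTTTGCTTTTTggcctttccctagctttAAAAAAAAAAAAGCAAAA
Neat1: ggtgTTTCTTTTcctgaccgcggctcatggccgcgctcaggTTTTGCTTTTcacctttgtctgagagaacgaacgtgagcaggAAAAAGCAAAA

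Norad is the cytoplasmic RNA that binds Pumilio proteins and keeps them from their mRNA targets. It was at 335, 315 and 247 normalized counts, or 299 ± 46.1 (SD, n = 3), and at 0.0605 per base. The third mouse was the lowest. The Pumilio motif TGTANATA occurs 11 times in its 4945 bases on the transcript strand, or 2.22 times per 1000 bases, against 0.116 over all canonical transcripts and 0.0948 over the other members. Of all 17475 transcripts, 5 hold 11 or more copies, Norad included, and the next member was Neat1 with 4. The motif was in 22 members (20.8%) and in 27.1% of all transcripts. A neighbouring pair of copies, in capitals, is shown from chr2:156232432-156232468 (minus strand, GRCm39).
Norad: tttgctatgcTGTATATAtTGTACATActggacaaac

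Imprinted lncRNAs, expressed from a single parental allele, gave 3 members of 9 on the list, of which 8 were in the table and Nespas was not. Peg13, which lies within Trappc9, was at 1824, 1587 and 1557 normalized counts, or 1656 ± 146 (SD, n = 3), second among the members by level. Mouse 1 was the highest. Its level per base was 0.350, and in GENCODE M39 27.4% of its canonical transcript is shared on the same strand with Trappc9. The authors left out reads that fall on several genes, so stretches shared in their older annotation add nothing to either gene. Whether that annotation holds this overlap was not checked. Trappc9 was at 622, 564 and 526, and the log2 ratio of Peg13 to Trappc9 was 1.54 ± 0.04 (SD, n = 3), nearly constant between mice.

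H19, an imprinted RNA of fetal growth that returns in injured vessels, varied most of all members. Its normalized counts were 519, 592 and 1041, or 717.3 ± 283 (SD, n = 3), with a coefficient of variation (CV, SD over mean) of 39.4%. Mouse 3 alone was high, by 0.91 on the log2 scale against the mean of the others. Igf2, its partner in the imprinted domain, was at 35, 21 and 164, again highest in mouse 3. Mouse 3 also had the highest sums of the cardiomyocyte, fibroblast, mural and lymphatic marker lists given above, the mural one by 1421 against 1410, though not for every gene: it was highest for 3 of 6, 3 of 5, 3 of 5 and 1 of 3 of them. Their part in this result was not tested.

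Airn runs antisense to Igf2r and silences its paternal allele. It was at 228, 208 and 358 normalized counts, or 264.7 ± 81.4 (SD, n = 3), with mouse 3 highest. Igf2r itself was at 1172, 1347 and 1471. Per base of canonical transcript Airn was at 0.234 and Igf2r at 0.149, and per base of all exons the order turned, at 0.0251 and 0.142.

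Meg3, the imprinted RNA of the Dlk1 domain, missed the threshold. It was at 106, 290 and 180, with a mean of 192 ± 92.6 (SD, n = 3), a CV of 48.2% and a level of 0.116 per base. Mouse 2 alone was above 200, and mouse 1 was lowest. Its neighbours Rian (94, 149 and 87) and Mirg (a mean of 5) and the imprinted Snhg14 (a mean of 50.3) were lower still.

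Host genes of snoRNAs were mostly below the threshold, like lncRNA genes as a whole. These genes are spliced, their introns yield snoRNAs that guide the modification of ribosomal RNA, and their spliced RNAs are often bound by ribosomes and rapidly decayed. All 21 on the list were in the table, 2 of them as members (9.52%), where 4.92% of all autosomal lncRNA genes are members, and their median level was 71 against 11 for all. Gas5, which carries 10 annotated snoRNA genes, was at 405, 383 and 371 normalized counts, or 386.3 ± 17.2 (SD, n = 3). It differed little between the mice. Per base of its 669-base canonical transcript it was at 0.577, above 97.7% of protein-coding genes, and per base of all its annotated exons at 0.0914, above 66.7% of them. Snhg5 was at 221, 194 and 191, a mean of 202 ± 16.5 (SD, n = 3) and 0.136 per base, above 200 in mouse 1 only.

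Snhg1 was the nearest below, at 194, 205 and 188, with a mean of 195.7. Next came Snhg12 at 175.7 and Zfas1 at 173.3 (206, 152 and 162), the latter with 0.369 per base. Snhg8 (122), Snhg6 (119) and Snhg17 (101.7) had means above 100, and Snhg16 (93.7), Epb41l4aos (90), Snhg7 (63.7), Snhg18 (63.3), Snhg20 (56), Snhg3 (50.7), Snhg4 (50.3), Dancr (19.3) and Snhg10 (10.7) did not. Snhg15 was at the list median, Snhg9 was lowest at 3, and Snhg11 (6.33) is typed as protein-coding in the table. Outside the list, the members 2410006H16Rik (234, 211 and 185), with 3 snoRNA genes including Snord49a and Snord65, and AI506816 (254, 465 and 407), with 1, also carry them.

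Many snoRNA host genes start with a 5′ terminal run of pyrimidines, the signal that ties translation of ribosomal protein mRNAs to growth signalling. The letters CTTT within 10 bases on either side of a RefSeq start (GRCm38.p6 table) were searched. This choice was made after looking at the starts of these host genes, so their share is a description and no support for the run. A hit also need not lie at the start itself. The letters were in 8 of 20 starts of the snoRNA host genes (40%), and in 2811 of all 32851 starts (8.56%). On the opposite strand, read as AAAG, they were in 8.3% of all starts. Gas5, Snhg5, Snhg8, Snhg9, Snhg10, Snhg12, Snhg15 and Snhg16 held them, of 18 host genes matched. The 50 bases about the RefSeq start of both members are shown as the windows that hold the letters in members, with CTTT in capitals, matched to chr1:160862716-160862765 (plus strand) and chr9:88404921-88404970 (minus strand) of GRCm39. In Gas5 CTTT begins at the RefSeq start. In Snhg5 it lies further inside the transcript, behind bases that include purines, so it is not a run at that start.
Gas5: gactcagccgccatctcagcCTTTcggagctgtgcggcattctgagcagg
Snhg5: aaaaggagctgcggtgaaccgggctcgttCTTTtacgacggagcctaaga

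Of 14 names on the list of microRNA host genes 10 were in the table and 2 were members, H19 and Mir22hg. Mir155hg, Mir124a-1hg and Mir9-3hg were not in the table, and Mir143hg is another name of Carmn, which was. Mir22hg was at 198, 228 and 208 normalized counts, or 211.3 ± 15.3 (SD, n = 3). Dleu2, outside the list, hosts Mir15a and Mir16-1 and was at 438, 385 and 391, or 404.7 ± 29.0 (SD, n = 3). Its 3 values were close together. Per base Dleu2 was at 0.437 by the canonical transcript and at 0.0177 by all its exons. Below the threshold were Mir100hg (103.7), Mir99ahg (37), Mir17hg (20), Dnm3os (9, 41 and 30) and Carmn, the host of miR-143 and miR-145 in smooth muscle (4.67).

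The table measures the hosts and not the mature microRNAs, which a library of this kind does not capture. The main arms that these 3 members encode are given from RefSeq (GRCm38.p6) to show what the host RNAs carry, with the seed, bases 2 to 8, in capitals. Both microRNAs of Dleu2 share the seed AGCAGCA.
mmu-miR-15a-5p: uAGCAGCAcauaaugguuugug
mmu-miR-16-5p: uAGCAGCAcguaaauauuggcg
mmu-miR-22-3p: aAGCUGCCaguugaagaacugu
mmu-miR-675-3p: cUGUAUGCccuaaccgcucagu
mmu-miR-675-5p: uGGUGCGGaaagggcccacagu

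Of 16 lncRNAs known from heart and vessel, 13 were listed and 3 were members: H19, Malat1 and Norad. Tug1 was at 885, 903 and 1001 normalized counts but has the biotype protein_coding in the table, so the rule passed it by. Mhrt, the cardiomyocyte RNA transcribed from the Myh7 locus, was at 123, 134 and 131, even between mice and below the threshold. Pvt1 (41, 105 and 93) was lowest in mouse 1. Trp53cor1 (25) and Lncpint (13.7) were above the lncRNA median of 11, Fendrr (3) and Mirt1 (2.33) were below it, and Miat, Mirt2 and Cdr1os were not listed. Outside that list, Bvht, or Braveheart, known from the commitment of the cardiac lineage, was a member at 372, 322 and 302, or 332 ± 36.1 (SD, n = 3).

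Hand2os1, on the other strand beside the heart transcription factor gene Hand2, was at 201, 218 and 325 normalized counts, with a CV of 27.1%. Hand2 was at 427, 331 and 605, and mouse 3 was the highest for both. Halr1, beside the HoxA cluster, was at 660, 415 and 335, with a CV of 36.0%, at 0.603 per base of canonical transcript and 0.0588 per base of all exons. Here mouse 1 was highest, by 0.82 on the log2 scale against the mean of the others, as it was for Hoxa2 (91, 74 and 35). Dubr, studied in muscle differentiation, was at 764, 755 and 749, a CV of 0.999%.

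Chaserr, which represses the chromatin remodeler gene Chd2 lying next to it, was at 425, 341 and 400 normalized counts, or 0.0756 per base, and 39.5% of its canonical transcript is shared with Chd2. Chd2 was at 736, 755 and 862, or 0.0863 per base. The order of the mice was not the same for both genes.

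Transcripts that start next to a protein-coding gene on the other strand were common. The start of 34 members (32.1%) lay within 1000 bases of a protein-coding start, as did that of 1421 protein-coding genes at or above the threshold (15.9%). Of the 1971 lncRNA genes below it that were found in GENCODE M39, 631 had such a start (32.0%). The share was 30 of 75 members (40%) from 200 to 400 and 4 of 31 (12.9%) at 400 or more. For protein-coding genes it was 20.3% and 14.1% in these ranges. Brip1os (1011, 1172 and 1047) starts 483 bases from Brip1 (396, 474 and 435), a DNA repair helicase gene, and the log2 ratio was 1.31 ± 0.04 (SD, n = 3). The mice thus had the same order for both genes. Gm20544 (439, 362 and 331) starts 81 bases from Smad7, the inhibitor of TGF-β signalling, which was at 1518, 1382 and 1521. Gas5 starts 626 bases from Zbtb37 (mean 301.7), Foxd2os (216, 267 and 278) 130 bases from Foxd2 (157, 170 and 138), and Zbtb11os1 (237, 171 and 198) 824 bases from Zbtb11 (337, 375 and 356). Antisense overlap with a protein-coding gene was found for 57 members (53.8%) and for 1230 of the same 1971 lncRNA genes below the threshold (62.4%).

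Other members lie close behind a protein-coding gene on its strand. There were 14 such members within 5000 bases (13.2%), against 210 of the 1971 lncRNA genes below the threshold (10.7%) and 1397 protein-coding genes (15.6%). ENSMUSG00000121092 (354, 342 and 298) begins 342 bases behind Nrp1, the VEGF co-receptor of endothelial cells (1887, 1779 and 1965), and per base was at 0.620 against 0.366 for Nrp1 by canonical transcripts. ENSMUSG00000120144 (561, 577 and 513) begins 821 bases behind Arf6, a GTPase of membrane traffic (968, 996 and 930), with a log2 ratio of -0.81 ± 0.04 (SD, n = 3) to it. ENSMUSG00000121141 (742, 779 and 669) begins 277 bases behind Cmip (651, 618 and 777), at 0.406 and 0.240 per base. Whether such RNA is a gene of its own or the extended end of the coding transcript cannot be told apart from counts per gene.

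The remaining members are mostly without a studied function. By symbol, 32 members have Riken clone names, 23 are gene models with Gm numbers, 4 have other clone names, 18 carry only an Ensembl identifier and 29 have other symbols. ENSMUSG00000120992 (1193, 1785 and 1505, mean 1494) is typed as protein-coding in the newer GENCODE M39 under the name D17H6S56E-5 and holds an open reading frame of 596 codons; it was the only member with a changed type. 6430562O15Rik (mean 973.3), Gm12002 (1119, 716 and 894), AU020206 (1111, 774 and 708) and Gm9917 (945, 746 and 746) complete the 10 highest. Gm12002 was highest in mouse 1, as were the other three.

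Among the other named members, Rab10os (369, 361 and 330), Unc45bos (400, 258 and 300), N4bp2os (295, 198 and 188), Gt(ROSA)26Sor (249, 185 and 180), the transcript of the Rosa26 locus, and the lncRNA entry under the symbol Trmt61b (233, 209 and 176) were highest in mouse 1. Ppp4r1l-ps (324, 324 and 322) and R74862 (248, 242 and 242) hardly differed between mice. Ube2d-ps (377, 273 and 330), Cep83os (284, 255 and 310) and Dnah2os (284, 237 and 228) complete the named members.

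The highest levels per base among the members rest on short canonical transcripts. AU020206 was at 2.30 per base of its 375-base canonical transcript and at 0.118 per base of all its exons. 5031425E22Rik was at 1.31 and AW112010, an RNA with a reported translated reading frame in macrophages (606, 567 and 504), at 1.24 per base of canonical transcript. They were the 3 members over 1 per base, against 10 protein-coding genes at or above the threshold. Across genes the Spearman correlation of level with canonical length was 0.25 for members and 0.29 for protein-coding genes at or above 200, as a description, since genes are not independent replicates.

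In exon number and reading frame, which the rule did not use, members were nearer to the lncRNA genes below the threshold than to protein-coding genes at or above it. Of the lncRNA genes below the threshold, the 1971 found in GENCODE M39 were used here. A single exon was annotated for 27 members (25.5%), 380 lncRNA genes below the threshold (19.3%) and 128 protein-coding genes (1.43%). The longest open reading frame had a median of 77 codons in members, 70 in lncRNA genes below the threshold and 477 in protein-coding genes, and at least 100 codons in 27 members (25.5%), 480 (24.4%) and 8855 (98.8%) genes. Gm33989 (918 codons) and D930048N14Rik (225 codons) were among the long ones. Exons shared with another gene on the same strand were found for 16 members (15.1%), 190 lncRNA genes below (9.64%) and 554 protein-coding genes (6.18%). A snoRNA gene lay inside 4 members (3.77%), 34 (1.73%) and 195 (2.18%) genes of these classes, and inside 2 of the 92 lncRNA genes (2.17%) that pass without mouse 1. Members were spread over 19 chromosomes, with the most on chromosome 11 (15), which also holds the most autosomal lncRNA genes of the table (155).

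At the threshold the values run on without a gap. Just inside were Gm47469 (223, 189 and 192, mean 201.3), 5033406O09Rik (195, 209 and 199, mean 201) and 2310015A10Rik (249, 172 and 179), whose mean is exactly 200. Just outside were 4833403J16Rik (217, 199 and 183, mean 199.7) and 2610035D17Rik (334, 111 and 153, mean 199.3), followed by 4833438C02Rik, ENSMUSG00000119977 and ENSMUSG00000121066, tied at 196. In every mouse 84 of the 106 members were at or above 200.

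**Figure D2:**
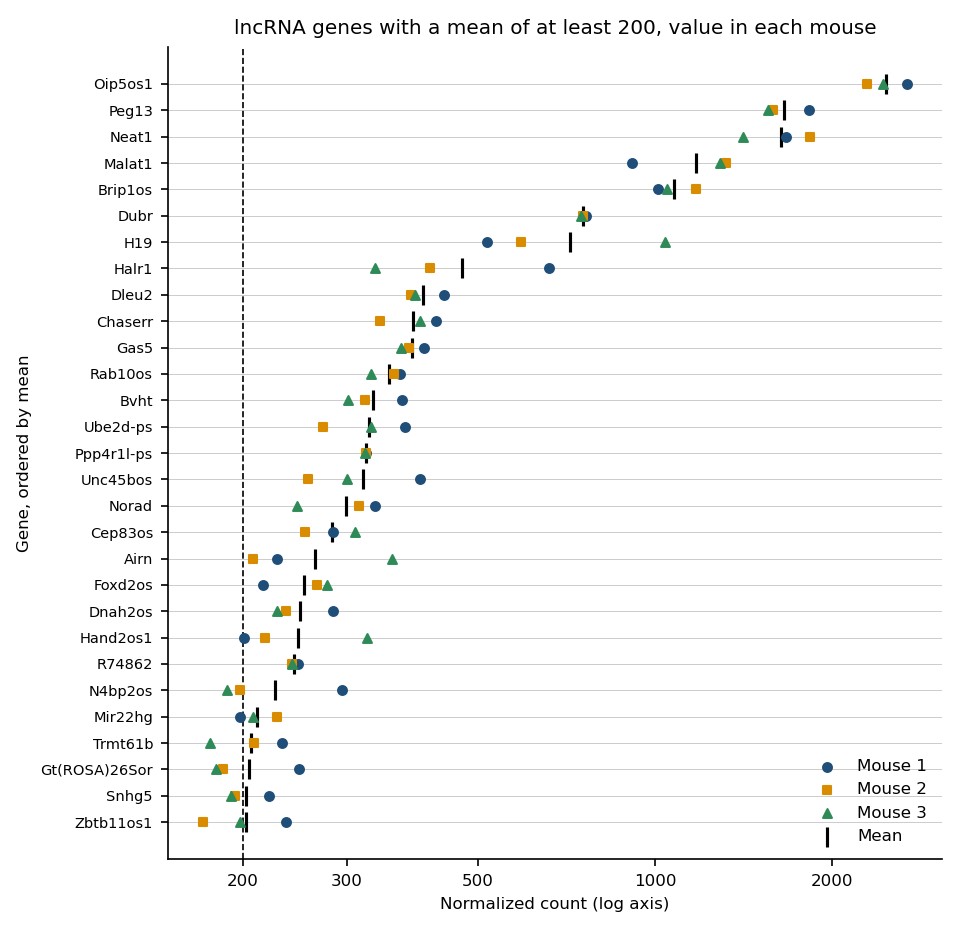
Normalized count in each mouse (log axis) of the 29 members whose symbol is not a clone, model or Ensembl name, ordered by mean; symbols stand for the mice, the black bar for the mean, the dashed line for the threshold of 200. Oip5os1 leads at 2464, H19 runs from 519 to 1041, and the values of Dubr lie between 749 and 764.

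By median CV, members varied more between mice than other genes of the table at the same minimum level. A CV over 20% was found for 19 of 106 members (17.9%), where 7.97% of all autosomal genes with a mean of at least 200 had one. The median CV was 12.5% for members, 34.0% for lncRNA genes below the threshold and 7.32% for protein-coding genes at or above it; counting alone gives 7.07% at a level of 200 and 3.16% at 1000. From 200 to 400 normalized counts the share over 20% was 11 of 75 members (14.7%) and 399 of 2512 protein-coding genes (15.9%), whereas at 400 or more it was 8 of 31 members (25.8%) and 303 of 6449 protein-coding genes (4.70%). From 200 to 400 the median CV was 12.6% for members and 9.41% for protein-coding genes, and at 400 or more it was 12.2% and 6.79%. The count rests on mouse 1: without it 5 members (4.72%) and 4.75% of all genes had a CV over 20%. The median CV was then 7.58% for members and 5.99% for all genes at this minimum level. Without mouse 2 there were 25 members (23.6%) and 9.94% of all genes, and without mouse 3 there were 29 members (27.4%) and 9.02% of all genes. H19, Halr1, Airn, AI506816 and ENSMUSG00000120162 (355, 227 and 226) had the highest CVs.

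Mouse 1 was the highest of the 3 for 74 of 106 members (69.8%), where 37.4% of protein-coding genes with a mean of at least 200 were highest in it. The mean that chose the members includes mouse 1, and 15 members would not pass on mice 2 and 3 alone, such as Gt(ROSA)26Sor and N4bp2os. Chosen on those mice, 60 of 92 lncRNA genes (65.2%) and 36.7% of 9014 protein-coding genes were highest in mouse 1. Mouse 1 was lowest for 13 members (12.3%), Malat1 and H19 among them. It was lowest for 31.8% of the 8961 protein-coding genes with a mean of at least 200 over all 3 mice. Mouse 2 was highest for 18 members and mouse 3 for 12, and in the other two, Ppp4r1l-ps and B230354K17Rik, the top value was shared. The median log2 ratio of mouse 1 to the mean of the others was 0.20 over the members and 0.01 over protein-coding genes.

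Counts over groups of lncRNA genes are given without a test of their difference, and the lists share genes such as Meg3 and H19. Mouse 1 was highest for 16 of 27 members with a single exon and 58 of 79 with several, for 42 of 57 antisense to a protein-coding gene and 32 of 49 not antisense, and for 51 of 75 members from 200 to 400 and 23 of 31 at 400 or more. Of the 29 members with symbols other than clone or model names 19 were highest in mouse 1, Oip5os1, Peg13, Halr1, Dleu2, Gas5, Bvht and Norad among them, and 6 were lowest in it: Malat1, H19, Brip1os, Mir22hg, Foxd2os and Hand2os1. At 1000 or more, 2 of 6 members were highest in it, Oip5os1 and Peg13. Over the lists, members or not, mouse 1 was highest for 11 of 21 snoRNA hosts, 2 of 8 imprinted genes, 1 of 5 nuclear-retained genes, 0 of 10 microRNA hosts and 1 of 13 heart and vessel genes, and it was lowest for 8 of those microRNA hosts and 10 of those heart and vessel genes. Of lncRNA genes below the threshold 42.8% were highest and 22.4% lowest in mouse 1, and of processed pseudogenes 38.1% were highest in it. The number of autosomal lncRNA genes at or above 200 was 121 in mouse 1, 99 in mouse 2 and 91 in mouse 3. Mouse 1 is also the mouse with the lowest sums of the marker lists for mural cells, fibroblasts and leukocytes and with Xist near 0; their part in the result was not tested.

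**Figure D3:**
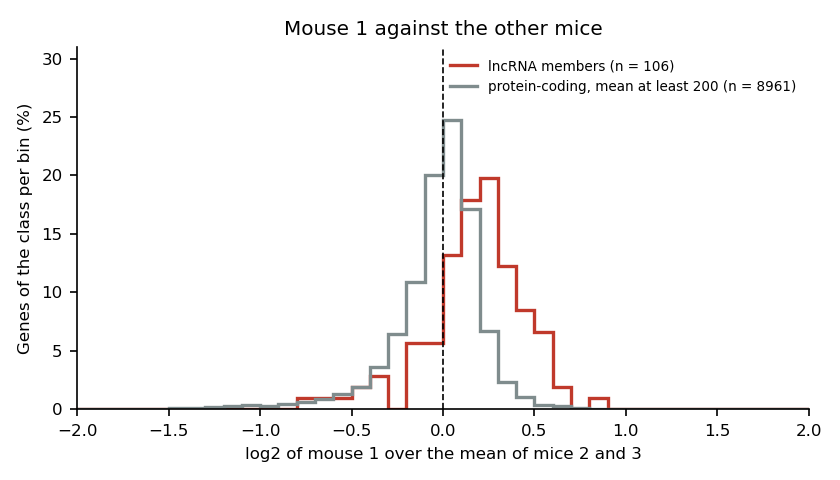
Log2 ratio of mouse 1 to the mean of mice 2 and 3, as percent of genes per bin; red, the 106 members; grey, the 8961 protein-coding genes with a mean of at least 200; dashed line, no difference. The members have a median of 0.20 and the protein-coding genes a median of 0.01.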

How the data were processed

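The deposited values are normalized counts, scored per gene and mouse: for this unit, score, the authors divided read counts by a DESeq2 size factor for each library and rounded. According to the submitters' processing notes and methods, 72-bp single-end reads were trimmed (Trimmomatic 0.39), aligned to mm39 (STAR 2.7.11a), freed of duplicates (Picard 3.1.1) and of multimapping, ribosomal and mitochondrial reads, counted over exons by strand (featureCounts 2.0.4) with reads over several genes left out, and normalized (DESeq2 1.36.0). From the rounding step a read is worth 0.977, 1.06 and 0.961 normalized counts in mice 1 to 3. Biotypes are those of the table; lengths, exons and neighbours are from GENCODE M39, where all 106 members were found, which is newer than the Ensembl 109 annotation of the study. Means, SDs and CVs were computed with Python 3.11.15, pandas 2.3.3, numpy 2.4.6 and scipy 1.17.1, and the steps were tested on simulated data. No test was made: there is a single condition, and the level chose the members. Members and lists were chosen with earlier results of these data known. Named are members whose symbol is not a clone, model or Ensembl name, the 10 highest, the 5 with the highest CV, those nearest the threshold, and every gene of 5 lists (snoRNA hosts, imprinted, nuclear-retained, microRNA hosts, heart and vessel); other genes and the sequences were chosen after their values were seen. Alternatives were equal totals, trimmed means of log ratios, X and Y included, the median or lowest of the mice, thresholds of 100 and 400, a minimum of 10 in every mouse, CV limits of 15% and 30%, the length of all exons, other distances, and leaving out each mouse. No gene or mouse was left out of the levels. Values by length, exon, reading frame or neighbour cover only genes found in GENCODE M39. These are 2077 of 2155 lncRNA genes, 1971 of the 2049 below the threshold and 13757 of 13767 protein-coding genes.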

Additional observations from a re-analysis of the deposited data

How the results depend on the processing

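No paired analysis was possible because the table holds a single library per mouse and a single condition. Under the other scalings the level of the named members moved by less than the SD between mice in 72 of 72 recomputations, and the rank in 72 of 72; with 3 mice, leaving out 1 cannot move a mean by more than that SD, so those settings say nothing on levels. Ranking per base moved the rank of 35 of 36 named members by more than the SD between mice, Oip5os1 from 92 to 2457 among them. The exception was H19, which went from 3639 to 1868. The number of members was 236 at a threshold of 100, 31 at 400 and 92 to 111 when a mouse was left out. The share of lncRNA genes past the threshold, 4.92%, became 3.90% with the lowest of the mice, 10.95% at 100, 1.44% at 400, 10.87% among genes with at least 10 in every mouse, and 4.27% to 5.15% with a mouse left out. The log2 ratio of median levels became 5.34 with the lowest of the mice and 3.48 with at least 10 in every mouse. The log2 ratio per base at 200 or more reversed to 0.31 with all annotated exons, a change made by the length alone, and ran from -0.36 to -0.22 with a mouse left out. A CV over 15% was found for 39 members, over 30% for 3, and over 20% for 5 to 29 with a mouse left out, fewest without mouse 1; the cause was not tested. The share of members highest in mouse 1 was 72.6% with equal totals, 71.7% with trimmed means and 65.2% with members chosen on mice 2 and 3 alone, all 3 chosen after seeing the data. Within 500 bases of a protein-coding start, 17 members remained of the 34. Depth limits the low end, where a level of 200 carries a counting error of 7.07%.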

Other observations

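On the X chromosome 4 lncRNA genes had a mean of at least 200, and the selection leaves them out. Firre, which anchors the inactive X chromosome near the nucleolus, was at 446, 677 and 581 normalized counts, or 568 ± 116 (SD, n = 3). The unnamed 5530601H04Rik was at 297, 299 and 304 and was even between mice, unlike Xist, and C430049B03Rik was at 235, 284 and 233. Jpx (51, 81 and 85) and Ftx (46, 50 and 92), both from the region of Xist, were lowest in mouse 1.

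Other noncoding types also passed 200 on the autosomes. The transcribed processed pseudogene 2810025M15Rik was the highest of these, at 639, 622 and 569, or 610 ± 36.5 (SD, n = 3). Zrsr1, an imprinted retrogene typed as a pseudogene in the table, was at 535, 413 and 465, and Rps4l, a ribosomal protein copy, at 420, 465 and 409. Gm44220, of the type TEC, loci that await experimental proof of a transcript, was at 367, 138 and 296, with mouse 2 low and a CV of 43.9%. Of all 382 autosomal TEC genes 115 were highest in mouse 1 (30.1%), and of all 2155 autosomal lncRNA genes 44.1%; of the 5 TEC genes at 200 or more, 2 were highest in it, Gm44950 (315, 312 and 257) and Gm44220.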
